A study of Mus musculus with 10 samples.

Results

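The basic leucine zipper (bZIP) transcription factors were described here in colon regulatory T cells (Tregs) of the mouse, which are CD4 T cells that depend on Foxp3 and restrain immunity. The genes were all those that the deposited count table assigns to the family TF_bZIP, which gave 48 of the 54532 genes in the table and of the 1469 genes with any entry for a factor family. In 45 of the 48 the counts passed the filter on low counts, and these were tested. The other 3 were Nfe2l3, Mafa and Gm28047, of which Gm28047 overlaps Atf7 and held 1 count over all libraries. The table gives 4 Cebp genes a family of their own, and they were not among the 48, although Ddit3, a partner of the Cebp factors, was.

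The Tumor group came from the colon tumours of Apc Min/+ mice that also carried Foxp3 DTR, and the WT group from Foxp3 DTR mice with the genotype WT, with colon as the labelled tissue of both. In Apc Min/+ mice 1 allele of the Wnt pathway inhibitor Apc is truncated, and intestinal adenomas grow. Foxp3 DTR, which both groups carried, is a diphtheria toxin receptor expressed under Foxp3, and no label names a toxin dose or any other treatment. Cells were gated as CD45+, CD3+, CD4+, CD25+ and GFP+ and sequenced by Smart-seq2, which copies whole transcripts of small numbers of cells. Each group had 5 libraries, all from male C57BL/6 mice aged 16 weeks. Genotype and tumour tissue changed together, so they cannot be told apart. Whether the 5 samples of a group were 5 animals is not stated, so p-values cover only the spread among these samples, which may be technical.

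Total counts were 3054435 to 7747699 in Tumor libraries and 1676229 to 8412887 in WT libraries. The 14 T cell marker genes had a geometric mean of 255 to 429 CPM, counts scaled to a common library size, in Tumor libraries, against 10.4 to 96.3 CPM in WT libraries. Treg markers, Foxp3 among them, summed to 2705 to 5558 CPM in Tumor libraries, against 108 to 1091 CPM in WT libraries, so the markers of the labelled cells were present in all libraries and lower in WT. Summed markers of epithelium, the cells lining the gut, came to 58.9 to 5668 CPM in Tumor libraries, against 27333 and 35803 CPM in WT 1 and WT 2 and 181 to 307 CPM in WT 3, 4 and 5. Macrophage and monocyte markers summed to 1319 to 6015 CPM in Tumor libraries, against 68.2 to 163 CPM in WT libraries. No list of markers had a gene at 0 in all libraries of a group. The main results are therefore also given on 3 further footings: with every library scaled to its T cell markers, without WT 1 and 2, and without WT 3, 4 and 5. None of these removes macrophage and monocyte RNA, and its part in the Tumor values of the bZIP genes was not tested. In such bulk samples fewer cells of a type and less RNA per cell cannot be told apart.

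The bZIP factors bind DNA as dimers, with a basic region that contacts the bases and a leucine zipper that joins the partners. Jun and Fos proteins form AP-1, which is induced within minutes of antigen receptor, growth factor or stress signals, and Batf competes with Fos for Jun partners and binds with IRF4 in T cells. Creb, Crem and Atf1 bind the cyclic AMP response element (CRE), the large Maf proteins act in T cells and other lineages, and Atf4, Xbp1 and Atf6 carry the responses to amino acid shortage and to misfolded protein. In Tregs of non-lymphoid tissues Batf is known as a regulator of the tissue programme.

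Crem, a CRE-binding factor with activator and repressor forms, was the only bZIP gene that passed the test with all libraries, and it was higher in Tumor. By edgeR's quasi-likelihood test with Benjamini-Hochberg adjustment over all 21414 genes tested, 1 of 45 bZIP genes was called higher at an adjusted p below 0.05, against a background of 1.37% of all genes. None was called lower, against a background of 0.219%. Without adjustment 12 of the 45 (26.7%) had a p below 0.05, 9 of them higher and 3 of them lower in Tumor, against 16.1% of all genes. The log2 fold change, Tumor over WT, was positive for 29 of the 45 (64.4%), against 43.8% of all genes, and its median was 0.41 for the bZIP genes and -0.20 for all genes. DESeq2 called 3 bZIP genes higher, Crem and Junb among them, against a background of 3.18%, and 0 lower, against 4.53%. For 5 of the 45 (Crem, Junb, Maf, Atf1 and Atf6) the lowest Tumor value was above the highest WT value, against 4.38% of all genes, and for 0 the highest Tumor value was below the lowest WT value, against 1.57%.

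Scaled to T cell markers, the picture differed in sign. On that scale 0 of the 45 bZIP genes were called higher, against 0.0794% of all genes, and 39 were called lower, against 91.4% of all genes, so the share of bZIP genes called was near the background. Scaling of this kind moved the median log2 fold change of all genes to -3.70 and that of the bZIP genes to -3.16. Crem alone kept a positive value. Crem, Batf, Nfil3 and Junb, which were among the 5 bZIP genes with the highest log2 fold changes under scaling to library composition (TMM), were also among the 6 that were not called lower per T cell marker, as was Maf. Because the scaling lowered nearly all genes, those with the highest values were the likeliest to stay uncalled. The overlap is therefore no separate support.

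**Figure D1:**
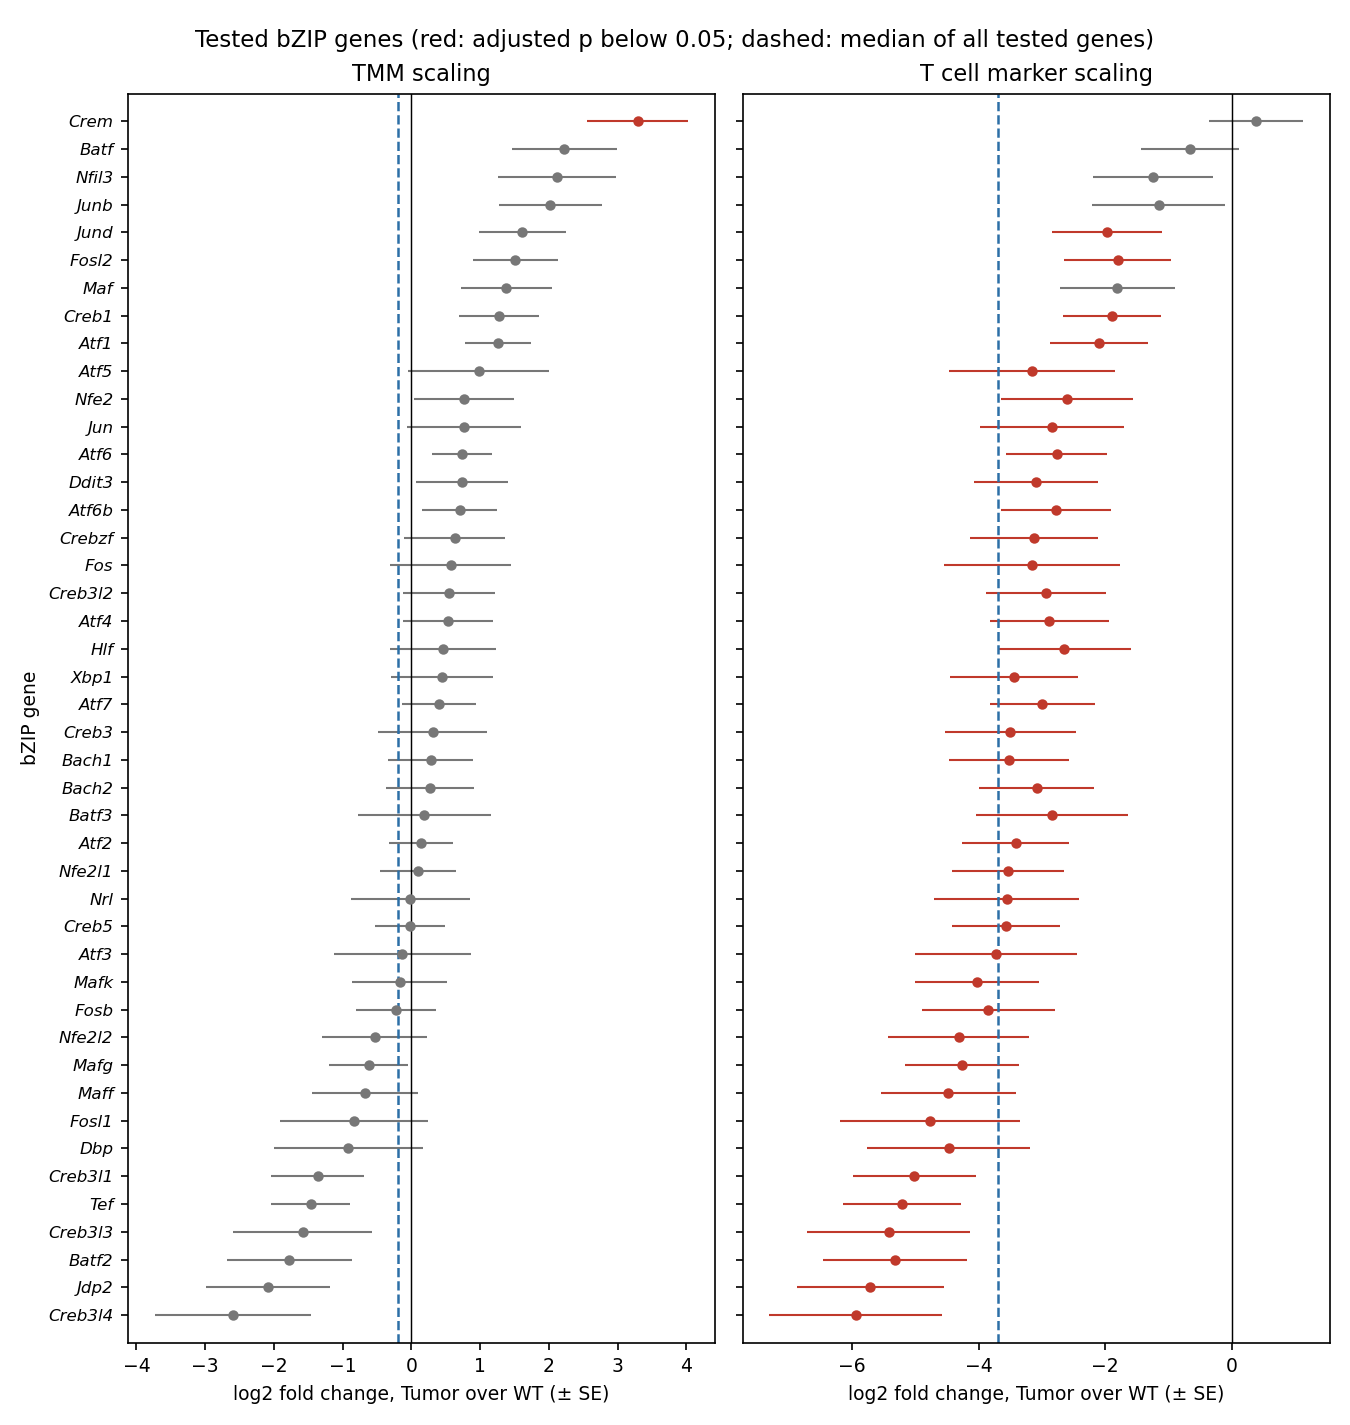
Log2 fold changes, Tumor over WT, with standard errors for 44 of the 45 tested bZIP genes, under TMM scaling on the left and T cell marker scaling on the right; red points had an adjusted p below 0.05 and the dashed line is the median of all tested genes, at -0.20 and -3.70. Crem is the 1 red point on the left, and on the right 39 genes are red on the negative side.

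Levels of different genes were compared as CPM per kilobase of the deposited gene length. Junb, an AP-1 subunit, was the most abundant bZIP transcript in Tumor libraries by its mean, at 595 ± 220 CPM per kilobase (SD, n = 5). Fos, its partner, followed at 363 ± 111, Batf at 154 ± 52.1, Jund at 133 ± 45.1, Jun at 85.8 ± 22.5 and Crem at 80.2 ± 22.6 CPM per kilobase. Of the neighbours in this order, only Fos and Batf differed beyond their spread. The ratio of Fos to Junb per kilobase was 0.308 to 1.28 in Tumor libraries, and Fos was above Junb in Tumor 4. In WT libraries Fos led with 244 ± 294 CPM per kilobase, followed by Junb with 147 ± 102, Jun with 50.6 ± 70.6, Atf4 with 48.8 ± 31.6 and Atf3 with 46.5 ± 63.0 (SD, n = 5 each). The WT order holds little information because for Fos, Jun and Atf3 the SD was larger than the mean. Crem stood in place 6 of the bZIP genes in Tumor libraries and in place 24 in WT libraries, where it had 8.20 ± 7.85 CPM per kilobase.

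**Figure D2:**
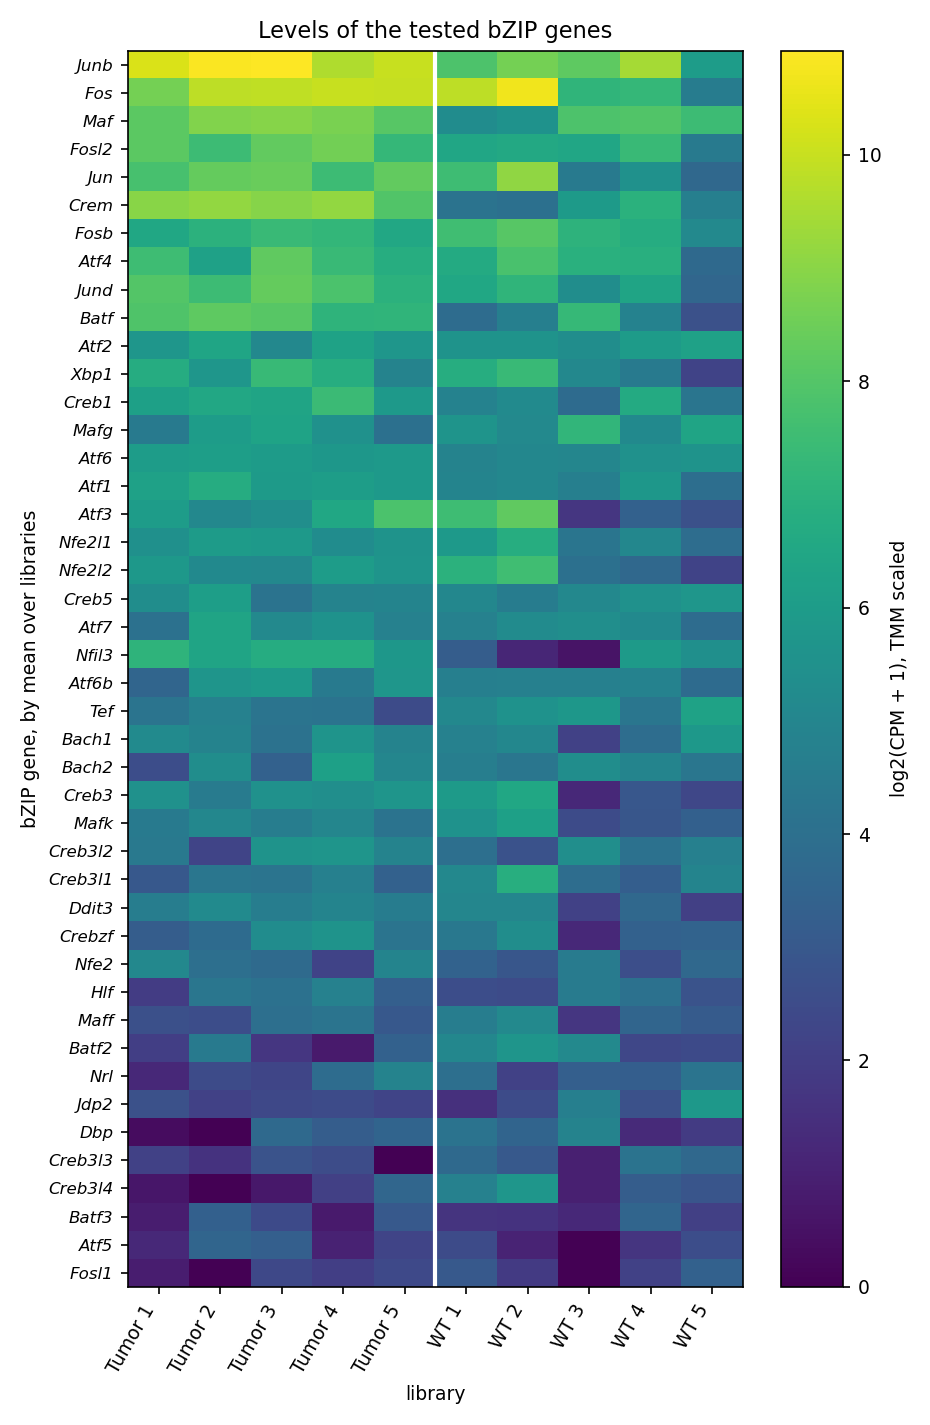
Levels of 44 of the 45 tested bZIP genes as log2(CPM + 1), TMM scaled, with 1 column per library, Tumor left of WT, and genes ordered by their mean over all libraries. The Tumor columns look alike, while in the WT columns Fos, Jun, Atf3 and Nfe2l2 are high in WT 1 and 2 and low in WT 3, 4 and 5.

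Summed over the family, bZIP transcripts came to 1641 to 2392 CPM per kilobase in Tumor libraries, against 1063, 1831, 612, 762 and 267 CPM per kilobase in WT 1 to 5. The groups overlapped only through WT 2. Jun proteins made up 42.1% ± 7.3 of that sum in Tumor libraries and 26.4% ± 12.9 in WT libraries (SD, n = 5 each). The Fos group held 21.9% ± 6.9 in Tumor libraries and 23.7% ± 15.8 in WT libraries, but the WT values fell apart into 40.6% and 41.0% in WT 1 and 2 and 14.8%, 13.3% and 8.65% in WT 3, 4 and 5. Batf and its paralogues Batf2 and Batf3 held 5.78% to 10.5% in Tumor libraries, against 2.15% to 3.65% in 4 of the WT libraries and 21.0% in WT 3. The Creb group, which holds Crem, made up 5.91% ± 1.6 in Tumor libraries and 3.05% ± 2.07 in WT libraries. Small Maf proteins, which lack an activation domain and pair with CNC factors such as Nfe2l2, held 0.593% to 1.34% in Tumor libraries, against 1.59% to 7.47% in WT libraries, and these groups did not overlap. No other subfamily separated in this way. The small Maf genes themselves had log2 fold changes of -0.67 to -0.17, and the sum they are a share of was larger in Tumor than in all WT libraries but WT 2. These shares are a description and were not tested.

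**Figure D3:**
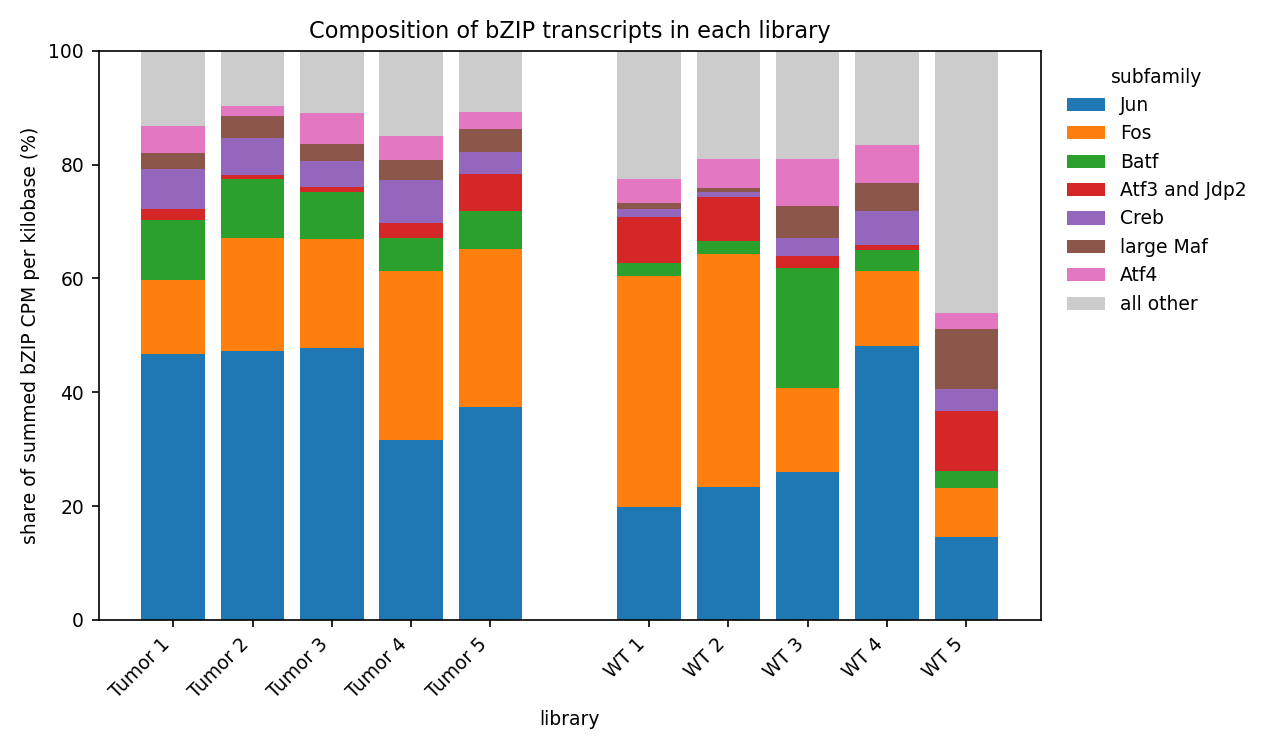
Share of each bZIP subfamily, in percent of the summed bZIP CPM per kilobase, in each library, with the Tumor libraries left of the WT libraries. Jun proteins take 31.5% to 47.8% of every Tumor bar, whereas the WT bars differ, with Fos at about 41% in WT 1 and 2 and Batf at 21.0% in WT 3.

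Promoter sequence was examined for sites that bZIP factors themselves bind. RefSeq promoters (GRCm38.p6, 250 bases before to 50 after a listed start) were matched for 38 of the 48 genes, with 52 promoters listed for them. The first listed promoter of each gene was set beside that of all 27025 genes listed, and other starts were not counted. The AP-1 site TGANTCA, read on both strands, was present in 1 of the 38 (Ddit3), against 7.93% of all promoters, and the full CRE TGACGTCA in 2 (Creb5 and Hlf), against 1.88%. The short CRE, TGACG on either strand, which the full CRE contains, was present in 16 of the 38 (42.1%), against 21.0% of all promoters. The 4 promoters printed here belong to abundant or strongly varying AP-1 and Batf genes that hold a short CRE, and they show where it lies. Each sequence is given 5′ to 3′ on the strand of the gene, and capitals mark the short CRE, as TGACG or its reverse complement CGTCA:
Fos (chr12:85473640-85473939, plus strand): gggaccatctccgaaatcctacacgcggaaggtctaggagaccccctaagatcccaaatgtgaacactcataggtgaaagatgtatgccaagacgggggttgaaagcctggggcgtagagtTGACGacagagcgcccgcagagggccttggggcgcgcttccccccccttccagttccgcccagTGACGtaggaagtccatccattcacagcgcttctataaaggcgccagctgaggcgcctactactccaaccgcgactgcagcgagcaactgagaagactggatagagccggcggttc
Junb (chr8:84978699-84978998, minus strand): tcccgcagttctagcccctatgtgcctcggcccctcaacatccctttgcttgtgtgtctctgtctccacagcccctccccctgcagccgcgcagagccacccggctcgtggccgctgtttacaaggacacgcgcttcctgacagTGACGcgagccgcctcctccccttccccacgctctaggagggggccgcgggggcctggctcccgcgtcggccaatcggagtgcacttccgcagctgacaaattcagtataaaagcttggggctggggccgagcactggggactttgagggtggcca
Batf (chr12:85686470-85686769, plus strand): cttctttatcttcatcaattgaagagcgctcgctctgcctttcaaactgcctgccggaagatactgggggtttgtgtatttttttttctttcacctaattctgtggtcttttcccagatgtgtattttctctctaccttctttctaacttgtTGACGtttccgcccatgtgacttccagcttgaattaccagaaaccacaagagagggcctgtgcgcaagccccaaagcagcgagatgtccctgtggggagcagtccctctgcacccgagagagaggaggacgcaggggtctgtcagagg
Atf3 (chr1:191183284-191183583, minus strand): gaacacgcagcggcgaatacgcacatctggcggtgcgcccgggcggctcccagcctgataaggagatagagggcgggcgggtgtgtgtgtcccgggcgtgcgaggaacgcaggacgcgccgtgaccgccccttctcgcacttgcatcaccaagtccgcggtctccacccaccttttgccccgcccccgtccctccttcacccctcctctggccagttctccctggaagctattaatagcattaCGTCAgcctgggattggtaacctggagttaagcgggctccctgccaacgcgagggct
Fos held 2 matches and the others 1 each. The Atf3 window lies inside the deposited gene, which spans 191170296 to 191218039, so it is not at the outermost start of that gene. The promoters of Jun and Fosl2 held no match to the short CRE in this window. A match is a run of letters only, and whether any factor was bound there was not measured.

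Among the CRE-binding factors, Crem had 497, 573, 488, 562 and 244 CPM in Tumor replicates 1 to 5, against 16.6, 15.5, 60.1, 124 and 24.9 CPM in WT replicates 1 to 5. The groups did not overlap, Tumor 5 was the lowest of its group, and the WT values were lowest in WT 1 and 2. The means were 473 ± 133 CPM in Tumor and 48.3 ± 46.3 CPM in WT (SD, n = 5 each), and the log2 fold change was 3.29 ± 0.74 (SE; edgeR quasi-likelihood test, adjusted p = 0.0297). Behind these values stood 1065 to 3168 reads in Tumor libraries and 55 to 342 reads in WT libraries. The gene lies on chromosome 18, at 3266048 to 3337748 in mm10, and counts per gene do not separate its activator forms from the short repressor form ICER, which starts at an internal promoter.

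The call for Crem was lost when any of Tumor 1, 2, 3 or 4 or WT 1 was left out (edgeR, adjusted p = 0.0759, 0.103, 0.0967, 0.0785 and 0.0993), while its log2 fold change stayed between 3.01 and 4.02 in all 10 such fits. It was 2.75 ± 0.69 without WT 1 and 2 (edgeR, adjusted p = 0.0170) and 4.89 ± 0.57 without WT 3, 4 and 5 (edgeR, adjusted p = 3.4e-06). With each library scaled to its T cell markers it was 0.38 ± 0.74 (edgeR, adjusted p = 0.613). Per unit of the T cell marker mean, Crem came to 0.906 to 1.65 in Tumor libraries and 0.397 to 1.31 in WT libraries, which overlapped. The T cell markers were thus higher in Tumor together with Crem. Macrophage and monocyte markers were higher there too, and their part in the Crem values was not tested.

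Atf1 and Creb1, the paralogues of Crem, moved less. Atf1 had 74.5, 108, 61.2, 67.3 and 57.6 CPM in Tumor replicates 1 to 5, against 29.0, 31.8, 25.4, 53.1 and 14.5 CPM in WT replicates 1 to 5. Its groups did not overlap, but the gap between Tumor 5 and WT 4 was narrow and the log2 fold change was 1.26 ± 0.48 (edgeR, adjusted p = 0.212). Creb1 averaged 95.7 ± 44.6 CPM in Tumor and 39.5 ± 35.8 CPM in WT (SD, n = 5 each), with overlapping groups and a log2 fold change of 1.28 ± 0.58 (edgeR, adjusted p = 0.292). Because both paralogues were read in the same libraries, their ratio to Crem does not depend on how a library is scaled, though it can depend on the mix of cells. Per kilobase, the ratio of Crem to Atf1 was 2.20 to 4.34 in Tumor libraries and 0.253 to 1.23 in WT libraries, without overlap. The ratio of Crem to Creb1 was 7.59 to 15.8 in Tumor libraries and 0.989 to 10.7 in WT libraries, where only WT 3 reached into the Tumor range. Both ratios were lowest in WT 1 and 2, the libraries high in epithelial markers, at 0.297 and 0.253 for Atf1 and 1.38 and 0.989 for Creb1. Neither ratio was tested, nor was the part of other cells in them. Crem had the highest log2 fold change of the bZIP genes in these same libraries. A higher ratio to genes that moved less follows from that and is no separate support.

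**Figure D4:**
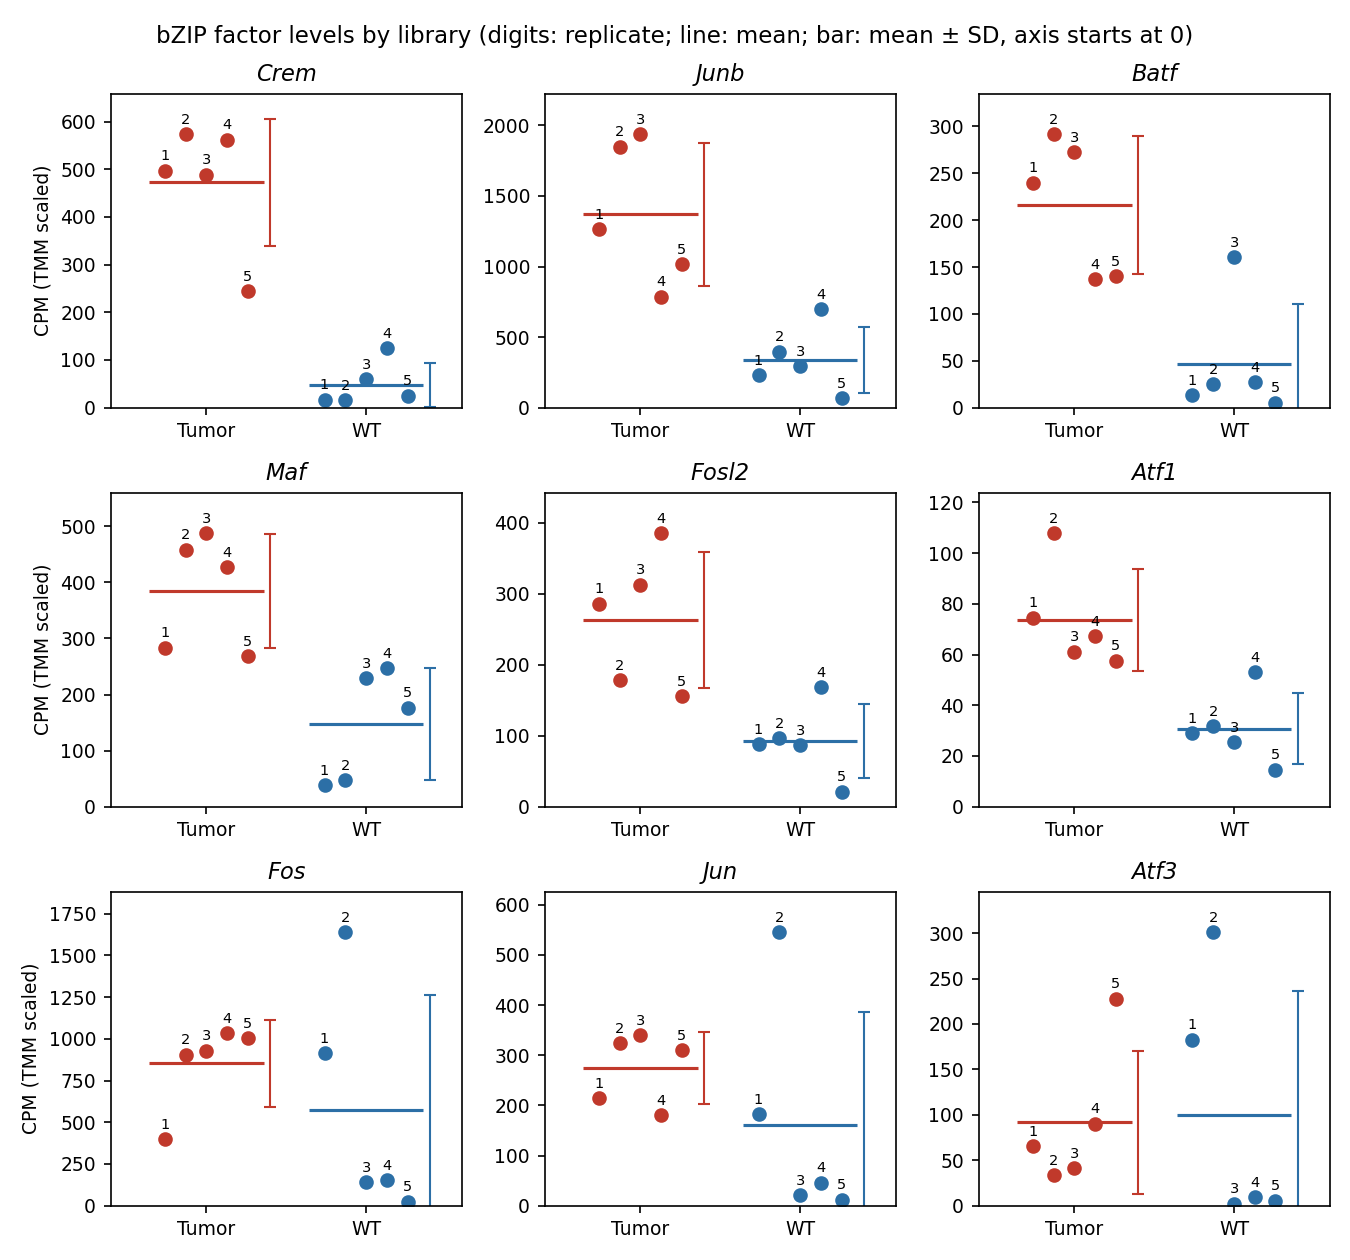
CPM (TMM scaled) of 9 bZIP genes in each library, with Tumor left of WT, replicate numbers above the points, the mean as a line and mean ± SD as a bar cut off at 0. Crem, Junb, Maf and Atf1 show no overlap between groups, Batf and Fosl2 overlap through 1 WT library, and Fos, Jun and Atf3 are higher in WT 1 and 2 than in WT 3, 4 and 5.

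Jun proteins, the AP-1 subunits that can also pair with each other, did not pass the test with all libraries. Junb, the Jun protein most tied to T cell differentiation, had 1263, 1849, 1935, 787 and 1016 CPM in Tumor replicates 1 to 5, against 231, 398, 295, 697 and 65.3 CPM in WT replicates 1 to 5. Every Tumor value was above every WT value, with Tumor 4 close to WT 4. Its log2 fold change was 2.02 ± 0.74 (edgeR, adjusted p = 0.194; DESeq2, adjusted p = 0.0313). Junb overlaps Prdx2 on the opposite strand, and a use of strand in the counting is not given in the sources used here. Jund averaged 222 ± 75.3 CPM in Tumor and 72.3 ± 48.8 CPM in WT (SD, n = 5 each), with a log2 fold change of 1.62 ± 0.64 (edgeR, adjusted p = 0.222). Tumor 5, at 128 CPM, and WT 2, at 139 CPM, were the libraries through which its groups overlapped.

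Jun itself had 214, 324, 341, 180 and 310 CPM in Tumor replicates 1 to 5, against 183, 545, 21.1, 45.5 and 11.8 CPM in WT replicates 1 to 5. WT 2 lay above all Tumor libraries, WT 1 was level with Tumor 4, the lowest of its group, and WT 3, 4 and 5 lay below all of them. With all libraries the log2 fold change was 0.76 ± 0.83 (edgeR, adjusted p = 0.670). It was 3.37 ± 0.66 without WT 1 and 2 (edgeR, adjusted p = 0.0048) and -0.47 ± 0.45 without WT 3, 4 and 5 (edgeR, adjusted p = 0.988). Its direction thus depended on which WT libraries were used.

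Fos, the immediate early partner of Jun, had 397, 906, 930, 1032 and 1003 CPM in Tumor replicates 1 to 5, against 914, 1638, 142, 152 and 23.1 CPM in WT replicates 1 to 5. WT 1 and 2, the libraries with the high epithelial markers, stood among or above the Tumor values, and the other WT libraries stood below all of them. The log2 fold change was 0.57 ± 0.88 with all libraries (edgeR, adjusted p = 0.775), 3.01 ± 0.75 without WT 1 and 2 (edgeR, adjusted p = 0.0168) and -0.61 ± 0.42 without WT 3, 4 and 5 (edgeR, adjusted p = 0.789). Per unit of the T cell marker mean, Fos came to 1.24 to 4.28 in Tumor libraries, against 65.6 and 42.0 in WT 1 and 2 and 1.11 to 2.28 in WT 3, 4 and 5. The part of epithelial RNA in these values was not tested.

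Fosl2, also called Fra-2, which forms AP-1 with Jun proteins, averaged 263 ± 95.7 CPM in Tumor and 92.2 ± 52.2 CPM in WT (SD, n = 5 each). Only WT 4, at 169 CPM, exceeded a Tumor library, namely Tumor 5 at 155 CPM. The log2 fold change was 1.51 ± 0.62 (edgeR, adjusted p = 0.237), and it was 1.5 without WT 1 and 2 and 1.51 without WT 3, 4 and 5. Of the other Fos genes, Fosb had a log2 fold change of -0.22 ± 0.58 and Fosl1, with means of 2.49 CPM in Tumor and 4.54 CPM in WT, one of -0.83 ± 1.08.

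Atf3, a stress-induced factor that represses as a homodimer, had 65.5, 33.6, 41.4, 90.0 and 228 CPM in Tumor replicates 1 to 5, against 183, 301, 2.35, 9.46 and 5.44 CPM in WT replicates 1 to 5. WT 2 lay above all Tumor libraries, WT 1 above all but Tumor 5, and WT 3, 4 and 5 below all of them. Its log2 fold change was -0.13 ± 0.99 with all libraries (edgeR, adjusted p = 0.960) and 3.97 ± 0.77 without WT 1 and 2 (edgeR, adjusted p = 0.0043). It was -1.43 ± 0.55 without WT 3, 4 and 5 (edgeR, adjusted p = 0.222). Jdp2, a repressor that dimerises with Jun, averaged 4.29 ± 0.896 CPM in Tumor and 18.5 ± 22.4 CPM in WT (SD, n = 5 each), where WT 3 and 5 had 25.4 and 54.9 CPM. Its log2 fold change of -2.09 ± 0.90 (edgeR, adjusted p = 0.263) did not pass the test.

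Jdp2 lies between Fos and Batf on chromosome 12, with 122 kb to Fos and 46.8 kb to Batf. The log2 fold changes along that stretch were 0.57 ± 0.88 for Fos, -2.09 ± 0.90 for Jdp2 and 2.23 ± 0.77 for Batf, and those of Fos and Jdp2 changed sign without WT 3, 4 and 5 (-0.61 and 0.34). Atf3 and Batf3 lie 61.4 kb apart on chromosome 1 and had log2 fold changes of -0.13 ± 0.99 and 0.19 ± 0.96, whose signs are not resolved.

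Batf, the AP-1 factor that binds with IRF4 and is required for tissue Tregs, had 240, 291, 273, 137 and 140 CPM in Tumor replicates 1 to 5, against 13.3, 24.9, 161, 27.3 and 5.44 CPM in WT replicates 1 to 5. WT 3 alone reached into the Tumor range, above Tumor 4 and 5, and the other WT libraries were far below. Batf had a log2 fold change of 2.23 ± 0.77 with all libraries (edgeR, adjusted p = 0.161) and 3.62 ± 0.69 without WT 3 (edgeR, adjusted p = 0.0156). WT 3 also had plasma cell markers of 9198 CPM, against 62.8 to 829 CPM in the other WT libraries and 17.7 to 1204 CPM in Tumor libraries, and the part of those cells in its Batf level was not tested. Per unit of the T cell marker mean, Batf came to 0.401 to 0.747 in Tumor libraries and 0.261 to 2.58 in WT libraries, and the log2 fold change on that scale was -0.66 ± 0.77 (edgeR, adjusted p = 0.401). Batf2 and Batf3, which have roles in myeloid and dendritic cells, averaged 7.45 and 4.51 CPM in Tumor, against 25.2 and 3.94 CPM in WT, and neither passed the test.

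Large Maf proteins bind a longer element than the other bZIP factors. Maf, which drives Il10 and the intestinal programmes of T helper cells and Tregs, had 283, 458, 487, 427 and 268 CPM in Tumor replicates 1 to 5, against 38.4, 47.0, 230, 247 and 176 CPM in WT replicates 1 to 5. Its groups did not overlap, and within WT, unlike for Fos, WT 1 and 2 lay below WT 3, 4 and 5. Maf had a log2 fold change of 1.38 ± 0.66 with all libraries (edgeR, adjusted p = 0.312), 0.84 ± 0.57 without WT 1 and 2 (edgeR, adjusted p = 0.4) and 3.16 ± 0.51 without WT 3, 4 and 5 (edgeR, adjusted p = 0.000134). Per unit of the T cell marker mean, Maf came to 0.882 to 1.25 in Tumor libraries and 1.2 to 8.47 in WT libraries. Nrl, a large Maf gene known from rod photoreceptors, averaged 10.5 CPM in Tumor and 10.6 CPM in WT. Mafa, known from pancreatic beta cells, held 1 to 4 counts in Tumor libraries and 4 to 26 counts in WT libraries.

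The small Maf genes Mafg, Maff and Mafk had log2 fold changes of -0.62 ± 0.58, -0.67 ± 0.78 and -0.17 ± 0.69, and none passed the test. Mafg, which had the smallest p of them, averaged 45 ± 27.5 CPM in Tumor and 69.3 ± 47.0 CPM in WT (SD, n = 5 each), with overlapping groups, and it overlaps Sirt7 on the same strand. Of the CNC and Bach genes, Nfe2, an erythroid and megakaryocyte factor, had a log2 fold change of 0.77 ± 0.72 (edgeR, adjusted p = 0.613) and the others lay between -0.53 and 0.28. Nfe2l2, the oxidative stress regulator Nrf2, was chosen after its values were seen because its direction depended on the WT libraries. Its values were 55.4, 35.2, 33.6, 65.1 and 49.6 CPM in Tumor replicates 1 to 5, against 127, 187, 15.5, 12 and 3.63 CPM in WT replicates 1 to 5. WT 1 and 2 were above and WT 3, 4 and 5 below every Tumor library. It was called higher in Tumor without WT 1 and 2 (log2 fold change 2.21 ± 0.67, edgeR adjusted p = 0.0431) and lower without WT 3, 4 and 5 (log2 fold change -1.73 ± 0.44, edgeR adjusted p = 0.0158). Bach2, a repressor that restrains effector programmes in T cells, averaged 31.7 ± 27.4 CPM in Tumor and 26.3 ± 8.73 CPM in WT (SD, n = 5 each), with a log2 fold change of 0.27 ± 0.64.

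In the unfolded protein and amino acid responses no bZIP gene passed the test with all libraries. Atf4, the effector of the integrated stress response, averaged 167 ± 85.8 CPM in Tumor and 115 ± 74.6 CPM in WT (SD, n = 5 each), with a log2 fold change of 0.54 ± 0.65 (edgeR, adjusted p = 0.706). Its paralogue Atf5 averaged 5.17 ± 4.44 CPM in Tumor and 2.59 ± 2.19 CPM in WT, and Ddit3, the stress factor CHOP, 27.2 ± 5.65 CPM in Tumor and 16.2 ± 14.2 CPM in WT. Atf6, a membrane-bound sensor of the endoplasmic reticulum, had 64.9, 69.6, 61.8, 54.7 and 57.1 CPM in Tumor replicates 1 to 5, against 28.8, 32.6, 31.5, 44.4 and 47.2 CPM in WT replicates 1 to 5. Values were even within each group and the groups did not overlap, with a log2 fold change of 0.74 ± 0.44 (edgeR, adjusted p = 0.407). Xbp1, which is activated by splicing and drives secretory capacity, averaged 92.3 ± 53.0 CPM in Tumor and 67.6 ± 69.7 CPM in WT (SD, n = 5 each). With a log2 fold change of 0.45 ± 0.74 for all libraries it did not pass (edgeR, adjusted p = 0.795), and gene counts do not show splicing.

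Of the 5 tested membrane-bound Creb3 genes 3 had a negative log2 fold change, and of the 4 genes of the PAR and Nfil3 group 2 did. Creb3l4, known from prostate and other epithelia, had 0.562, 0, 0.649, 3.19 and 11.2 CPM in Tumor replicates 1 to 5, against 27.1, 52.8, 0.939, 8.37 and 6.35 CPM in WT replicates 1 to 5. WT 1 and 2 were highest, as with the epithelial markers, and their part in this was not tested. The log2 fold change was -2.59 ± 1.14 (edgeR, adjusted p = 0.271). Tef, a clock-controlled factor of the PAR group, averaged 16.6 ± 7.94 CPM in Tumor and 45.7 ± 21.8 CPM in WT (SD, n = 5 each), with a log2 fold change of -1.46 ± 0.57 (edgeR, adjusted p = 0.216). Its groups overlapped through Tumor 2, at 26.9 CPM, and WT 4, at 18.6 CPM. Nfil3, the repressor that opposes the PAR factors and was also chosen after its values were seen, had 135, 81.6, 107, 107 and 53.7 CPM in Tumor replicates 1 to 5, against 8.42, 1.24, 0.469, 60.4 and 41.7 CPM in WT replicates 1 to 5. WT 4 exceeded Tumor 5 and the remaining WT libraries lay below all Tumor libraries, with a log2 fold change of 2.12 ± 0.86 (edgeR, adjusted p = 0.235). Crebzf, a cofactor without a strong DNA contact of its own, and Atf7, a relative of Atf2, had log2 fold changes of 0.63 ± 0.74 and 0.41 ± 0.54.

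The split of WT libraries was then followed over all 45 genes. Without WT 1 and 2, the libraries high in epithelial markers, 9 of 45 bZIP genes were called higher in Tumor, against a background of 6.4%, and 0 lower, against 1.5%. Among the 9 were Fos, Jun, Jund, Crem, Atf3, Xbp1, Nfe2l2 and Creb3, with log2 fold changes of 2.21 to 3.97. Without WT 3, 4 and 5, 5 were called higher (Crem, Junb, Maf, Batf and Nfil3), against 2.32%, and 3 lower (Nfe2l2, Creb3l1 and Creb3l4), against 2.09%. Crem was the 1 gene on both lists of higher genes. These fits compare with 3 and 2 WT libraries, and the difference between them was not tested.

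**Figure D5:**
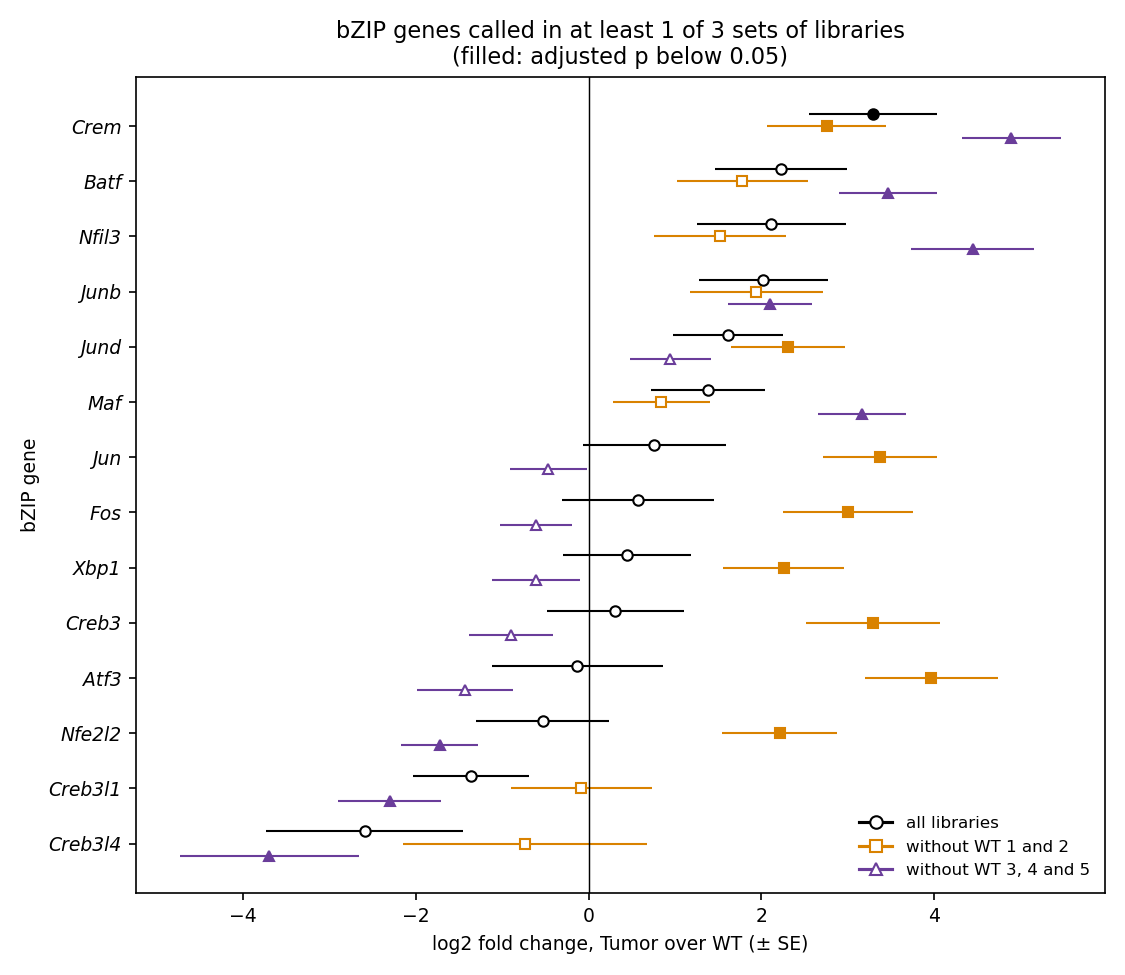
Log2 fold changes, Tumor over WT, with standard errors for 14 bZIP genes called in at least 1 of 3 sets of libraries: all (circles), without WT 1 and 2 (squares) and without WT 3, 4 and 5 (triangles), filled where the adjusted p was below 0.05. Crem is filled in all 3 sets, and for Jun, Fos, Atf3, Xbp1, Creb3 and Nfe2l2 squares and triangles lie on opposite sides of 0.

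WT 1 and 2 both lay above WT 3, 4 and 5 for 15 of the 45 bZIP genes (33.3%), against 23.8% of all tested genes, among them Fos, Fosb, Jun, Jund and Atf3. Both lay below WT 3, 4 and 5 for 6 (13.3%), against 13.1%, among them Crem and Maf. All Tumor libraries were above WT 3, 4 and 5 for 14 genes (31.1%), against 14.3% of all genes, and above WT 1 and 2 for 9 (20%), against 8.92%. They were below WT 1 and 2 for 10 (22.2%), against 12.6%. Levels also varied more within WT: the median SD of log2(CPM + 1) over the 45 genes was 0.715 in Tumor and 1.29 in WT, against 0.948 in Tumor and 1.09 in WT for all genes, and the WT SD was the larger for 31 of the 45 (68.9%), against 58.9% of all genes.

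Other genes of the same pathways were read from lists of upstream kinases, partners and targets, all by edgeR's quasi-likelihood test in the same fit. Over all genes, 1.37% were called higher, 16.1% had an unadjusted p below 0.05 and the median log2 fold change was -0.20, and each list is read beside these. Of 18 tested MAP kinases and relatives that act upstream of AP-1, 1 was called higher, Mapkapk2, a kinase downstream of p38, at 239 ± 94.0 CPM in Tumor and 44.6 ± 10.6 CPM in WT (SD, n = 5 each; log2 fold change 2.42 ± 0.55, adjusted p = 0.0307). Of 12 cyclic AMP and Creb regulators, 1 was called higher, Prkar1a, a regulatory subunit of protein kinase A, at 590 ± 122 CPM in Tumor and 79.9 ± 52.3 CPM in WT (SD, n = 5 each; log2 fold change 2.88 ± 0.70, adjusted p = 0.0423). Among 18 other immediate early genes 1 was called higher, Socs3, an inhibitor of cytokine signalling, at 90.3 ± 27.7 CPM in Tumor and 14.2 ± 12.9 CPM in WT (SD, n = 5 each; log2 fold change 2.68 ± 0.59, adjusted p = 0.0282). Under TMM scaling the median log2 fold changes were 0.60 for the kinases, 0.79 for the cyclic AMP list and 1.53 for the immediate early genes, and per T cell marker -2.92, -2.68 and -1.90. No gene of any of the 9 lists was called lower, against 0.219% of all genes, which is near that background.

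Genes linked to Batf in tissue Tregs had the highest median of the lists, at 3.33 over 9 tested genes, of which 5 were called higher, against 1.37% of all genes. Of the 9, 8 had a positive log2 fold change. Among the cell type markers, 7 of 14 T cell, 4 of 8 Treg and 5 of 11 tested macrophage and monocyte genes were called higher as well. How far the list follows those markers was not tested. Ccr8, a chemokine receptor of tissue Tregs, averaged 167 ± 85.7 CPM in Tumor and 2.03 ± 2.12 CPM in WT (SD, n = 5 each; log2 fold change 6.31 ± 0.94, edgeR adjusted p = 0.00566). Tigit, an inhibitory receptor, averaged 224 ± 147 CPM in Tumor and 14.6 ± 7.28 CPM in WT (SD, n = 5 each; log2 fold change 3.94 ± 0.69, edgeR adjusted p = 0.00842). The others called were Klrg1, Areg and Gata3. Pparg, a nuclear receptor of fat-tissue Tregs, had the opposite sign, with a log2 fold change of -2.15 ± 0.93 (edgeR, adjusted p = 0.264), and was named after its value was seen. This was also the 1 list whose median stayed positive per T cell marker, at 0.49. The list of NFAT and IRF partners held factors of families that bind beside AP-1 or Batf. It also held Ppp3ca, Ppp3cb, Ppp3r1 and Rcan1, which are not DNA-binding factors. Of its 10 genes none was called by edgeR and 4, Ppp3r1 among them, had an unadjusted p below 0.05, against 16.1% of all genes. Their median log2 fold change was 0.97, and -2.66 per T cell marker. Irf4, the partner of Batf, had a log2 fold change of 2.65 ± 0.74 (edgeR, adjusted p = 0.0812) and 0.04 ± 0.87 per T cell marker.

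Of 14 tested Atf4 targets 1 was called higher, Ddit4, an inhibitor of mTORC1, at 67.5 ± 28.7 CPM in Tumor and 5.25 ± 2.48 CPM in WT (SD, n = 5 each; log2 fold change 3.66 ± 0.60, edgeR adjusted p = 0.00612). None of 15 Xbp1 and Atf6 targets was called by edgeR and 3 had an unadjusted p below 0.05, against 16.1% of all genes. Hspa5, the chaperone BiP, had the smallest p of these, with a log2 fold change of 1.51 ± 0.63 (edgeR, adjusted p = 0.250). None of 13 genes around Nfe2l2 was called, 6 were positive and 2 had an unadjusted p below 0.05, in opposite directions. Hmox1, which degrades haem, had a log2 fold change of 2.29 ± 0.80 (edgeR, adjusted p = 0.168) and Nqo1, a quinone reductase, one of -1.98 ± 0.78 (edgeR, adjusted p = 0.219). None of 12 circadian clock genes was called, 6 were positive and 6 had an unadjusted p below 0.05, of which 4 were higher and 2 lower in Tumor. Bhlhe40, a clock repressor that T cell activation induces, had a log2 fold change of 2.47 ± 0.69 (edgeR, adjusted p = 0.0797). The 2 lower ones, the clock repressors Nr1d1 and Cry2, had -1.67 ± 0.72 and -1.35 ± 0.56 (edgeR, adjusted p = 0.263 and 0.246). Nqo1, Nr1d1 and Cry2 were named after their values were seen. Under TMM scaling the median log2 fold changes of these 4 lists were 0.39, 0.87, -0.04 and -0.16, against -0.20 for all genes. Per T cell marker they were -2.84, -2.74, -3.55 and -3.58, close to or above the -3.70 of all genes.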

How the data were processed

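RNA of 10 sorted Treg samples, 5 Tumor and 5 WT, was measured by Smart-seq2, and groups and replicate numbers came from the sample titles. The deposited values are raw read counts per gene, not normalized. Reads were aligned to mm10 with HISAT2 2.0.5 and counted with featureCounts 1.5.0-p3, per the submitters' processing notes, while the annotation release and strand setting are not given in the sources used here. Reads of overlapping genes such as Junb and Prdx2, Mafg and Sirt7, Creb3 and Tln1, or Ddit3 and Mars may thus be split or shared. No molecular identifiers were used, so counting error understates the error of a library. All 45 pairs of libraries differed by more than sampling noise (chi-square over degrees of freedom at least 25.7).

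The whole table was fitted in R 4.3.3 with edgeR 4.0.16: filterByExpr (minimum count 10, minimum total 15), TMM factors, a robust quasi-likelihood test, 2-sided, with group as the only term, and Benjamini-Hochberg adjustment over 21414 genes; calls needed an adjusted p below 0.05. A standard error is the size of the log2 fold change over the square root of F. CPM values are TMM scaled. T cell marker scaling used the geometric mean of 14 markers with a pseudocount of 0.5. The script was tested on simulated counts. Alternatives were RLE, upper-quartile and no factors, T cell marker scaling, DESeq2 1.42.0, limma voom 3.58.1, no filter, at least 10 CPM in 5 libraries, protein coding genes, a threshold of 0.01, a block on the replicate number, each library left out, and WT 1 and 2 or WT 3, 4 and 5 left out. T cell marker scaling without either set of WT libraries was added after seeing the data.

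The bZIP genes, lists and tests were chosen with earlier results of these data known. Genes were named where they were called, had 1 of the 5 highest mean levels per kilobase in a group, had the smallest p of their subfamily, or had groups that did not overlap and a mean of 5 CPM or more. Creb1, Bach2, Fosb, Fosl1, Batf2, Batf3, Maff, Mafk, Nrl and Mafa do not meet this rule and are given as well, like Nfe2l2 and Nfil3. Creb3 and Creb3l1 are named only from fits without some WT libraries. For each pathway list up to 2 called genes, or the gene with the smallest p, were named. 1 bZIP gene that the rule names is not reported here.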

Additional observations from a re-analysis of the deposited data

Results flagged for a closer look

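In the 22 bZIP genes named by rule and reported, 44 groups of 5 libraries were examined for a highest or lowest library set apart from the rest. Of these groups 4 were found, where normally distributed values would give about 1 in 20 groups. The values examined were CPM without a log, so the rate by chance may be higher here. Fos had 397 CPM in Tumor 1, against 906 to 1032 CPM in the other Tumor libraries. Crem had 244 CPM in Tumor 5, against 488 to 573 CPM in the other Tumor libraries. Batf had 161 CPM in WT 3, against 5.44 to 27.3 CPM in the other WT libraries. Creb3l4 had 11.2 CPM in Tumor 5, the Tumor library with the most epithelial marker RNA, against 0 to 3.19 CPM in the other Tumor libraries, and the part of that RNA was not tested.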

How the results depend on the processing

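The count of bZIP genes called higher was 1 with RLE, upper-quartile or no factors, with the 10 CPM filter and over protein coding genes. It was 3 with DESeq2, limma voom or no filter, 9 without WT replicates 1 and 2, 5 without WT replicates 3, 4 and 5, and 0 with T cell marker scaling, also without either set of WT libraries, and with an adjusted p below 0.01. Leaving out 1 library gave 0 to 2. The count called lower was 0 except with T cell marker scaling (39, against 91.4% of all genes) and without WT 3, 4 and 5 (3, against 2.09%). T cell marker scaling gave 20 without WT 1 and 2 and 38 without WT 3, 4 and 5. Shares of all genes, given above, were counted only for TMM scaling, T cell marker scaling and DESeq2 with all libraries, and for TMM scaling without either WT set. The other counts have no such share beside them and are not read as results about the bZIP genes. With the replicate block the count was 0 in either direction, Crem then having a log2 fold change of 3.71 and an adjusted p of 0.0542 (edgeR). Libraries with the same number deviated together by correlations of -0.126 to 0.0381, so no pairing by number was seen. The WT libraries differed so widely from each other that these correlations cannot exclude a pairing.

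T cell marker scaling turned 16 named genes negative: Junb -1.16, Fos -3.16, Jun -2.84, Maf -1.81, Fosl2 -1.81, Jund -1.98, Atf4 -2.88, Batf -0.66, Xbp1 -3.44, Atf1 -2.10, Atf6 -2.77, Atf7 -2.99, Crebzf -3.13, Ddit3 -3.09, Nfe2 -2.60 and Atf5 -3.16. Without WT 3, 4 and 5 the sign turned for Fos (-0.61), Jun (-0.47), Xbp1 (-0.61), Crebzf (-0.28), Ddit3 (-0.19), Mafg (0.13) and Jdp2 (0.34). Atf3 turned positive with no factors (0.13), limma voom (1.003), the replicate block (1.98), without WT 1 and 2 (3.97) and when 1 of 5 libraries was left out (0.015 to 1.02), its range over all 10 such fits being -0.80 to 1.02. Atf7 was -0.0064 without Tumor 2, in a range of -0.0064 to 0.62. The cause of these turns was not tested. Depth limits the genes near the filter, such as Fosl1, Batf3 and Atf5, to a few counts in several libraries. No named gene but Crem passed in the fit with all libraries, and at this spread a gene that did not pass can still differ several fold.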

Other observations

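The Cebp genes share the bZIP fold but carry another family entry or none in the table. By edgeR's quasi-likelihood test Cebpa, Cebpb, Cebpg and Cebpd, which the table gives no bZIP entry, had adjusted p-values of 0.627 to 0.767. Cebpb, a factor of myeloid and inflammatory responses, had 15.7, 14.1, 15.4, 16.5 and 8.26 CPM in Tumor replicates 1 to 5, against 2.34, 1.80, 9.39, 32.0 and 1.36 CPM in WT replicates 1 to 5. WT 4 exceeded all Tumor libraries and WT 3 exceeded Tumor 5, the lowest of its group, with a log2 fold change of 0.58 ± 0.87 (edgeR, adjusted p = 0.767). Cebpg, a partner of Atf4, had a log2 fold change of 0.55 ± 0.57 and Cebpa, a myeloid factor, one of -0.84 ± 0.82. Crebl2, a Creb relative without a family entry, averaged higher in Tumor, with a log2 fold change of 0.998 ± 0.58 (edgeR, adjusted p = 0.398).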
